A study of Mus musculus with 12 samples.

Results

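The genes of fatty acid oxidation, together with targets of the nuclear receptor PPARα, were examined in hepatocytes of mice homozygous for conditional *Gata4* and *Gata6* alleles (*Gata4,6 fl/fl*). The set was a list of 41 gene symbols grouped into 8 roles, from fatty acid uptake to the PPARα response. A gene was represented by its brightest probe, by mean log2 signal over the 12 arrays, among probes with a detection value of 0.05 or less on some array, which ranks a probe's signal against the negative controls. By this rule 37 of the 41 genes were measured, of 10838 named genes in all, and *Fabp1*, *Acsl1*, *Crot* and *Acad11* had no kept probe under their names and were not analysed here. Of the 37 genes, 34 were detected on all 12 arrays, *Acot3* and *Pdk4* on 11, and *Cidec*, the member nearest to the detection threshold, on 3.

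Mice of a C57BL/6 x 129Sv strain, 2.5 to 4.5 months old, had received an intravenous injection of adeno-associated virus 2 weeks before RNA was taken. The vector was AAV8-Tbg-Cre, in which a hepatocyte promoter (Tbg) drives the Cre recombinase, or AAV8-Tbg-GFP, which expresses green fluorescent protein and leaves the floxed alleles intact. All mice of both groups carried the floxed alleles and all were injected, so an uninjected group was not part of the comparison. Hepatocytes were purified by density gradient, RNA with an integrity number above 7.5 was used, and 6 samples labelled AAV-GFP and 6 labelled AAV-Cre were each hybridised to 1 Illumina BeadChip array. Whether each sample came from its own animal is not stated in the labels, and p-values therefore reflect the variation among these 12 samples only. In such bulk RNA, fewer cells expressing a gene and less RNA per cell cannot be told apart.

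Fatty acids are activated to acyl-CoA esters, carried into mitochondria as carnitine esters, and shortened in repeated cycles that yield acetyl-CoA and pass electrons to the respiratory chain. Very long chains are first shortened in peroxisomes. In liver, PPARα is activated by fatty acids during fasting and, as a heterodimer with RXR, binds direct repeats of the half-site AGGTCA near genes for most of these steps, and cytochromes of the Cyp4a family are among its most inducible targets in mice.

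Array quality was similar between groups. From 31.6% to 36.2% of exported probes were detected per array, and the median exported signal lay between 215.38 and 287.53. Of 7 measured hepatocyte markers, 6 were detected on all 12 arrays, and *Tat* was detected on 4. *Hnf4a*, a hepatocyte transcription factor, was between 13.58 and 14.30 on the log2 scale, while the probe for *Alb* read only 9.34 to 10.12. The adipocyte markers *Adipoq* and *Lep* were detected on 1 and 4 of 12 arrays. Some markers of other liver cells were detected on all arrays, among them the endothelial *Clec4g* (10.70 to 13.07), the stellate *Dcn* (9.86 to 12.08), the bile duct *Sox9* (10.29 to 11.84) and the erythroid *Alas2* (9.65 to 13.07). The summed linear signal of 8 endothelial markers spanned 3852 to 9808 in AAV-GFP and 4789 to 12250 in AAV-Cre, against 137800 to 163200 and 136600 to 166900 for 7 hepatocyte markers. For 7 macrophage markers this sum spanned 1849 to 4904 and 2225 to 4647, for 5 neutrophil markers 1460 to 4344 and 2009 to 6451, and for 5 stellate markers 3833 to 6467 and 2499 to 6929. The stellate markers detected on all 12 arrays were *Dcn* and *Reln*. *Dcn* differed by -0.12 between groups, and *Reln* by -0.88 (SE 0.21, limma adjusted p = 0.205). Of the neutrophil markers only *Lcn2* was detected on all 12 arrays, and it was highest on AAV-Cre replicate 2 (12.42). *S100a8*, *S100a9*, *Camp* and *Ltf* were detected on 3, 2, 1 and 1 arrays. The neutrophil range in AAV-Cre thus rests on *Lcn2* and is not a measure of neutrophil content. *Lcn2* differed by 1.17 (limma adjusted p = 0.638), the other neutrophil markers by -0.19 to -0.04. For 4 erythroid markers the sum spanned 7300 to 11300 and 6053 to 8286, and for 2 bile duct markers 1559 to 2453 and 1536 to 3963. The erythroid markers did not move together: *Alas2* was lowest on AAV-Cre replicate 3 (9.65) and *Hba-a1* highest there (12.66). Their group differences were -0.86 and 0.97, and neither passed the test. AAV-Cre replicate 3 stood apart from the other 11 arrays, with the female transcript *Xist* at 13.31 against 7.70 to 7.95 elsewhere and the Y-linked *Eif2s3y* at 7.75 against 11.53 to 11.89, so values without it are given where they bear on a result. The probe for *Gata4* lay at background in both groups (means 7.87 and 8.06), and the brighter of 2 probes for *Gata6* was higher in arrays labelled AAV-Cre (11.59 against 9.88, adjusted p = 3.8e-04). The exons that these probes read are not given in the sources used here, so the probes do not check the excision, and group names below are those of the labels.

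The promoters of 5 genes are shown because GATA factors and PPARα recognise short DNA motifs, and because these genes carry the lowest unadjusted p among the members (*Acot4*), some of the widest spreads (*Acot3*, *Pdk4*) or both motifs searched (*Creb3l3*, *Plin2*). Each is the 250 bases before the RefSeq transcription start in GRCm38.p6, read 5′ to 3′ on the gene's strand. Capitals mark the GATA motif (AGATAA, with T also allowed as its first letter and G as its last) or the half-site AGGTCA, on either strand, and no marked motif overlapped another. The windows were chr12:84038129-84038378 (plus strand) for *Acot4*, chr12:84051894-84052143 (plus strand, 1 of 2 starts) for *Acot3*, chr6:5496279-5496528 (minus strand) for *Pdk4*, chr10:81092592-81092841 (minus strand, 1 of 2 starts) for *Creb3l3* and chr4:86670060-86670309 (minus strand) for *Plin2*.
Acot4: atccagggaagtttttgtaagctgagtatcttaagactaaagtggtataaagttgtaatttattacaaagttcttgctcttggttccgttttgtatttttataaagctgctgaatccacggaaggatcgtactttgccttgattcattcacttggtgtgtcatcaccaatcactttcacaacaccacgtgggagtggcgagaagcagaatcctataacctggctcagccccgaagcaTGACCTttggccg
Acot3: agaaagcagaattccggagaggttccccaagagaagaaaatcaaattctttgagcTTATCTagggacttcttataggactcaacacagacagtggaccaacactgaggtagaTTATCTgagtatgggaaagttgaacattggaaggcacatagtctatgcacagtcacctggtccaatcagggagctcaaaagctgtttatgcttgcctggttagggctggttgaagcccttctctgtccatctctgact
Pdk4: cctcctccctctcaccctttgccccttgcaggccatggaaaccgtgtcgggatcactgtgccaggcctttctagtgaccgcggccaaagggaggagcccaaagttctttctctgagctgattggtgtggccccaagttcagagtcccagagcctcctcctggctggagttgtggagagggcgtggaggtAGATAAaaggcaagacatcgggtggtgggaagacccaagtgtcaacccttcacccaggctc
Creb3l3: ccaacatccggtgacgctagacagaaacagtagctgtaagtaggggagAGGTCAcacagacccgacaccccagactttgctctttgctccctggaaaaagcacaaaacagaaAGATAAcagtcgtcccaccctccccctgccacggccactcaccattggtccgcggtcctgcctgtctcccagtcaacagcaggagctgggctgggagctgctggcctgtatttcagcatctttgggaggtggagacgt
Plin2: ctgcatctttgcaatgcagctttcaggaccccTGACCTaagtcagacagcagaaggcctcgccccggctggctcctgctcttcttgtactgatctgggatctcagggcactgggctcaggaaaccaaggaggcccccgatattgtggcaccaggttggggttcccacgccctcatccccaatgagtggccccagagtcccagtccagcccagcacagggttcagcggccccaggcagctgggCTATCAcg

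*Acot4* held 1 half-site, 13 bases before the start, and no GATA motif. *Acot3* held 2 GATA motifs, 195 and 138 bases before the start, and no half-site, while *Pdk4* held 1 GATA motif at 61 bases. *Creb3l3* had the half-site at 202 and the GATA motif at 138 bases, and *Plin2* had them at 218 and 8 bases. *Acadvl*, whose window is not shown, also held both motifs. Of the 37 measured genes, 31 had a promoter in the table. A GATA motif was present in 8 of these 31 genes (25.8%), against 29.7% of 27025 genes with a promoter of this length. The half-site was present in 7 (22.6%), against 15.8% of all genes. The half-site followed, after any 1 base, by a second half-site in the same direction was found in 0 of 31, and in 0.0407% of all genes. These matches describe the letters of short windows and say nothing of binding.

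To ask whether transcripts of fatty acid oxidation differed after AAV-Cre, the groups were compared gene by gene. None of the 37 genes passed an adjusted p of 0.05, in either direction, where 34 of 20561 probes (0.165%) did. At an unadjusted p under 0.05 there were 5 genes (13.5%), against 5.05% of all probes, but this count was 8 without AAV-Cre replicate 1, 2 without AAV-GFP replicate 2 and 3 without replicate 3 of AAV-GFP or any of replicates 3, 5 and 6 of AAV-Cre. In no gene did the groups fail to overlap, against 0.501% of all probes. The fitted difference was above 0 in 32 of 37 genes, against 51.0% of all probes. The median difference was 0.14 on the log2 scale, against 0.0021 over all probes. These values include *Cidec*, which was kept through AAV-Cre arrays only. With detection required on at least 6 arrays *Cidec* was dropped. Then 31 of 36 genes were above 0, against 50.5% of probes, and the median was 0.14. Without AAV-Cre replicate 3, 0 of the 37 genes passed, 31 were above 0 and the median was 0.09. The median also depended on AAV-Cre replicates 5 and 6, without which it was 0.07 and 0.08. In 28 of the 37 genes the sign stayed the same in each of the 12 comparisons that left out 1 array, and it turned at least once in *Cpt2*, *Hadha*, *Hadh*, *Acaa2*, *Decr1*, *Decr2*, *Hsd17b4*, *Acot8* and *Cyp4a14*. The genes share the same 12 arrays and are not independent of each other.

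**Figure D1:**
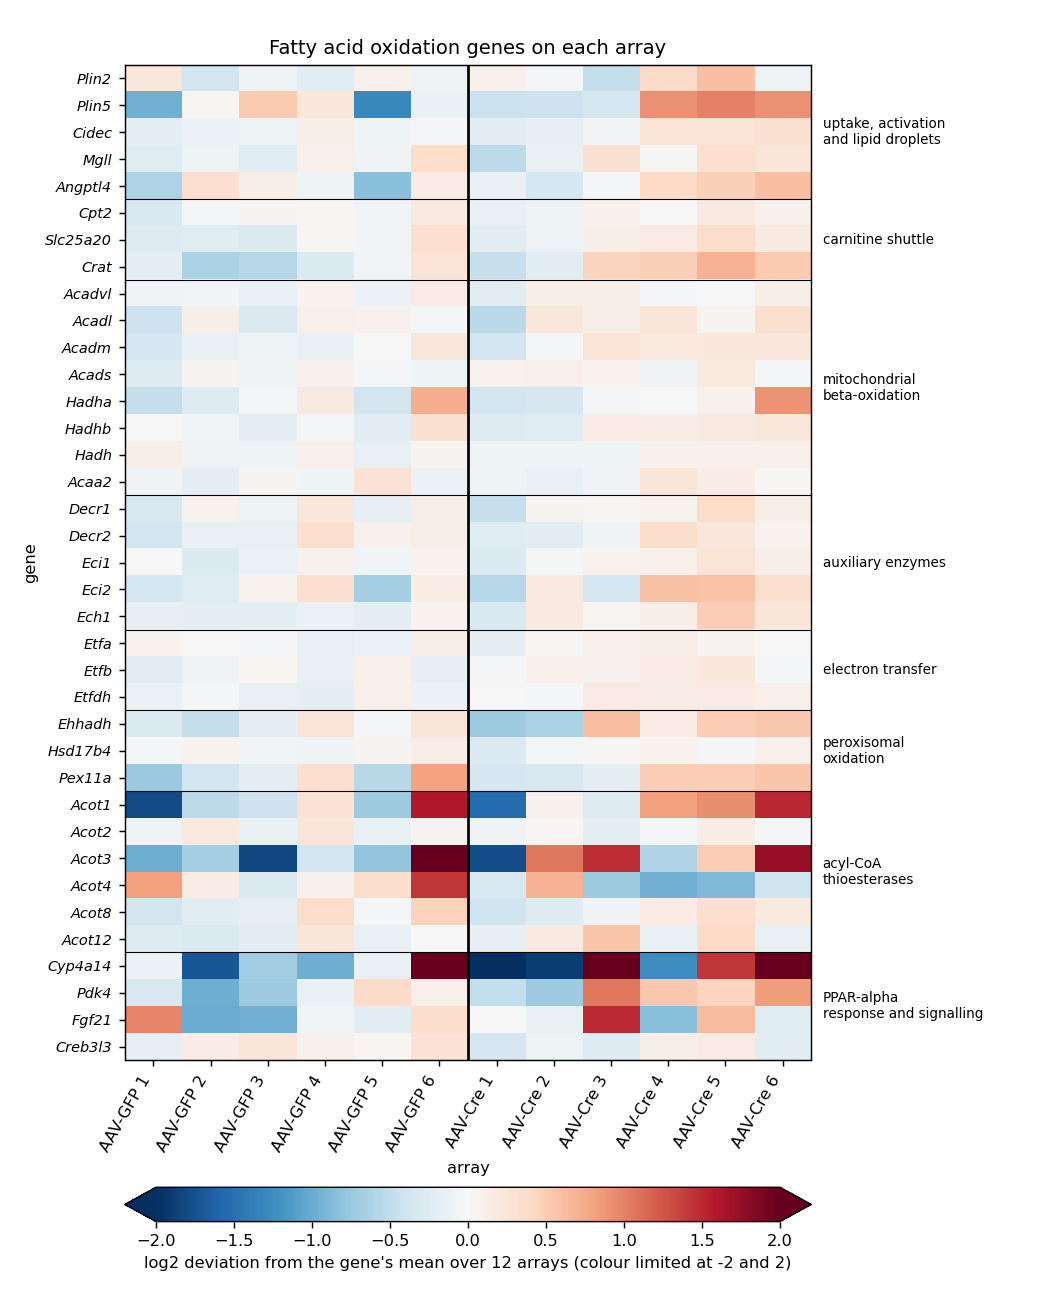
Log2 deviation of each of the 37 measured genes (rows, grouped by role) from its own mean over the 12 arrays (columns, the 6 AAV-GFP arrays left of the black line and the 6 AAV-Cre arrays right of it), red above and blue below the mean, with colour limited at -2 and 2. AAV-Cre replicate 1 is blue in most rows, AAV-Cre replicate 5 and AAV-GFP replicate 6 are red in most rows, and the deepest colours are in *Cyp4a14*, *Acot1* and *Acot3*.

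The arrays differed in how high the whole set lay, within both groups. The median deviation of the 37 genes from their own means was -0.28 on AAV-Cre replicate 1 and 0.28 on AAV-Cre replicate 5, the lowest and highest of all arrays. In AAV-GFP it lay between -0.25 on replicate 1 and 0.15 on replicate 6. AAV-Cre replicate 1 gave the lowest of the 12 values for 15 of the 37 genes, and AAV-GFP replicate 6 the highest for 12. On AAV-Cre replicate 5, 35 of 37 genes were above their own mean, and on AAV-Cre replicate 1 this held for 3. Both groups therefore held arrays with low and with high values of the set. The median exported signal, before normalization, was highest on AAV-Cre replicate 1 (287.53) and lowest on AAV-Cre replicate 5 (215.38). In AAV-GFP it was highest on replicate 1 (285.54). Replicates 3 and 5 of AAV-GFP (244.94 and 241.72) were dimmer than replicate 6 (255.94), yet the set lay lower on them. The summed endothelial and macrophage signals were highest on AAV-Cre replicate 3 and AAV-GFP replicate 4. The part of array signal and of these cell signals in the order of the arrays was not tested.

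**Figure D2:**
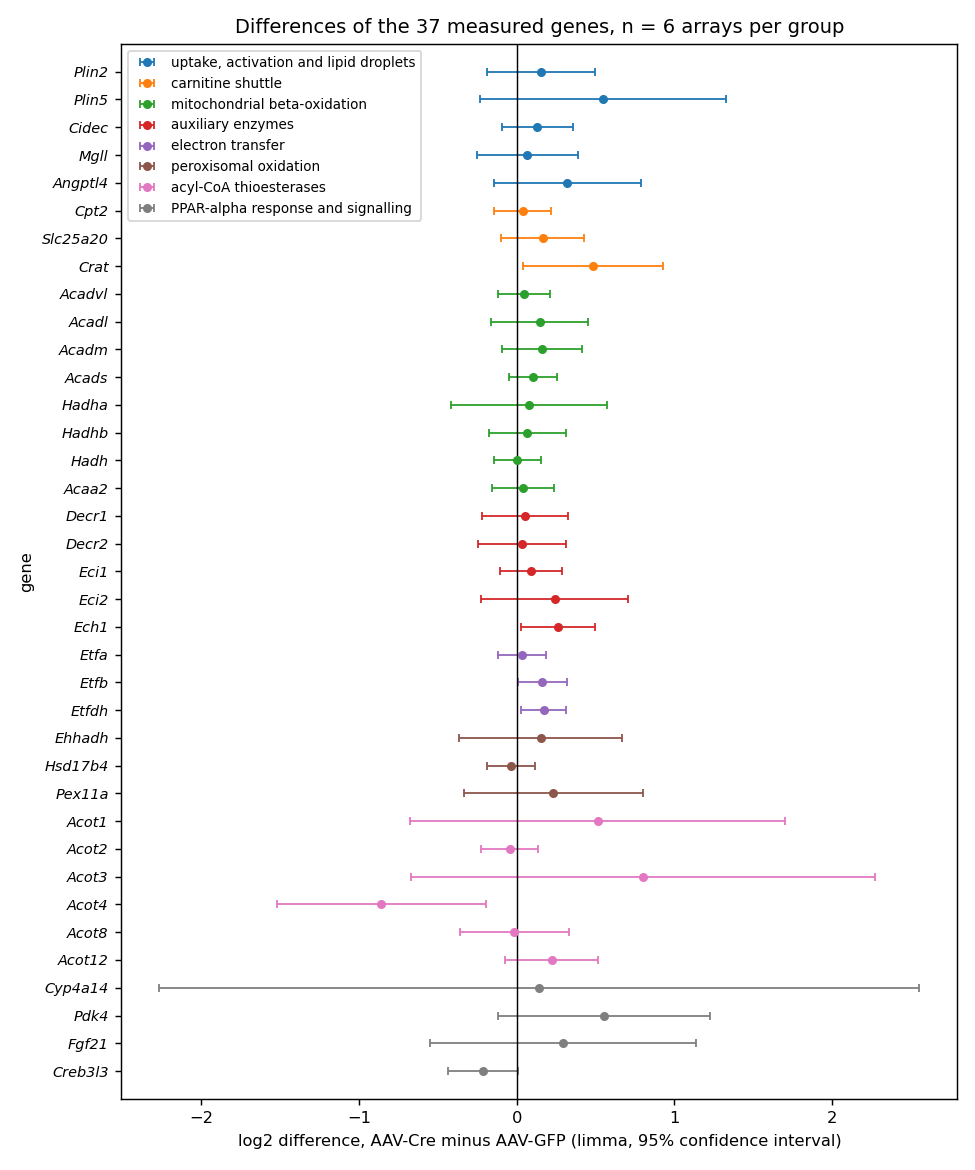
Log2 difference (AAV-Cre minus AAV-GFP, points) of each measured gene with limma's 95% confidence interval (bars), grouped and coloured by role, n = 6 arrays per group. The points lie right of 0 in 32 of 37 genes, the intervals of *Cyp4a14*, *Acot3* and *Acot1* are the widest, and *Acot4* lies farthest left at -0.86.

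The genes of fatty acid storage and handling came first by role. In this list 5 of 7 genes were measured, 0 passed the test and all 5 were above 0 (median 0.16). *Cidec*, among these 5, was kept through AAV-Cre arrays only and lay near background, so its sign carries no weight. *Plin5*, a lipid droplet protein that ties droplets to mitochondria in oxidative tissues, spanned 10.87 to 12.69 in AAV-GFP (median 12.11) and 11.73 to 13.18 in AAV-Cre (median 12.45), on the log2 scale of the normalized signal. The 3 highest values of all were AAV-Cre replicates 4 to 6, the other 3 AAV-Cre arrays lay within the AAV-GFP range, and the difference was 0.54 (SE 0.36, exact permutation p = 0.216), or 0.34 without AAV-GFP replicate 5. *Angptl4*, a secreted inhibitor of lipoprotein lipase induced in fasting, spanned 12.95 to 14.10 (median 13.79) and 13.43 to 14.38 (median 13.97), with the same 3 AAV-Cre arrays on top, and differed by 0.32 (SE 0.22, exact permutation p = 0.219), or 0.19 without AAV-GFP replicate 5. A second, dim probe for *Angptl4* gave -0.05. *Plin2*, the main coat protein of hepatocyte lipid droplets, spanned 11.49 to 12.08 (median 11.75) and 11.38 to 12.46 (median 11.87), and the overlapping groups differed by 0.16 (SE 0.16, exact permutation p = 0.409), with 0.05 to 0.26 when 1 array was left out. *Cidec*, which fuses lipid droplets and rises in fatty liver, lay between 7.77 and 8.31 on all arrays. It was detected on 0 of 6 AAV-GFP and 3 of 6 AAV-Cre arrays, and both group means were below the lowest signals called detected (8.22 when averaged over arrays), so no fold is given. *Mgll*, the monoglyceride lipase that frees the last fatty acid of a triglyceride, was at 12.03 to 12.92 over all arrays.

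In the carnitine shuttle 3 of 4 genes were measured, 0 passed and all 3 were above 0 (median 0.17). *Crat*, carnitine acetyltransferase, which buffers acetyl-CoA against carnitine, was between 9.34 and 10.24 in AAV-GFP (median 9.73) and between 9.52 and 10.66 in AAV-Cre (median 10.43). AAV-Cre replicates 3 to 6 lay above every AAV-GFP array, whereas AAV-Cre replicates 1 and 2 lay among them. The difference of 0.48 (SE 0.21, a 1.40-fold higher mean) had an unadjusted p of 0.0338 in limma, an adjusted p of 0.909 and an exact permutation p of 0.0693. A second probe for *Crat*, detected on 1 array, gave -0.03. *Slc25a20*, the carnitine-acylcarnitine carrier of the inner membrane, was between 13.61 and 14.28 over all arrays with a difference of 0.17 (SE 0.12). *Cpt2*, which turns the carnitine ester back into acyl-CoA inside the mitochondrion, differed by 0.04 (SE 0.08), and all 3 of its probes were above 0.

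Mean differences in the mitochondrial spiral were small. Of 9 listed genes 8 were measured, 0 passed and all 8 were above 0, with differences from 0.0048 to 0.16 and a median of 0.07. *Acadm*, the medium-chain dehydrogenase and one of the brightest transcripts of the set, was between 15.14 and 15.80 over all arrays and had the largest of these differences (0.16, SE 0.12). For *Acadvl*, the very-long-chain enzyme, the 95% interval of the difference ran from -0.12 to 0.21 on the probe used and from 0.03 to 0.32 on a second probe of similar brightness (difference 0.18, limma adjusted p = 0.794). The interval for *Acads*, the short-chain enzyme, ran from -0.05 to 0.26. *Acadl*, the long-chain enzyme, differed by 0.15 (SE 0.14). The trifunctional protein subunits *Hadha* and *Hadhb* differed by 0.08 and 0.07, but the *Hadha* probe was dim, at 8.41 to 9.79, while that of *Hadhb* was at 13.25 to 13.82. *Hadh*, the hydroxyacyl-CoA dehydrogenase, was read by dim probes (8.43 to 8.72 for the one used), and *Acaa2*, the thiolase of the last step, differed by 0.04. The exported signal still contains background, which shrinks the folds of dim probes such as these.

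The auxiliary enzymes handle double bonds of unsaturated fatty acids. All 5 were measured, 0 passed and all 5 were above 0 (median 0.09). *Ech1*, an isomerase of dienoyl-CoA found in mitochondria and peroxisomes, was confined to 14.48 to 14.73 in AAV-GFP (median 14.50) but spanned 14.37 to 15.17 in AAV-Cre (median 14.82). AAV-Cre replicate 1 was the lowest of all 12 arrays, and 4 AAV-Cre arrays lay above every AAV-GFP array. The difference was 0.26 (SE 0.11, a 1.20-fold higher mean, unadjusted limma p = 0.0303, adjusted p = 0.883), with an exact permutation p of 0.0455. *Eci2*, an enoyl-CoA isomerase, had a difference of 0.24 and a wide spread (12.25 to 13.50 over all arrays). *Eci1*, *Decr1* and *Decr2*, the mitochondrial isomerase and the mitochondrial and peroxisomal dienoyl-CoA reductases, differed by 0.09, 0.06 and 0.03.

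Electrons from the dehydrogenases pass through the electron transfer flavoprotein and its oxidoreductase to the respiratory chain. All 3 genes were measured, 0 passed, and all 3 were above 0 (median 0.16). *Etfdh*, the oxidoreductase, was between 13.11 and 13.40 in AAV-GFP (median 13.19) and between 13.27 and 13.47 in AAV-Cre (median 13.43). All AAV-GFP arrays except replicate 5 lay below the lowest AAV-Cre array. The difference of 0.17 (SE 0.07, a 1.13-fold higher mean) gave an unadjusted limma p of 0.0207, an adjusted p of 0.797 and an exact permutation p of 0.0152, and all 3 of its probes were above 0. *Etfb*, the beta subunit, was between 14.73 and 15.05 (median 14.85) and between 14.91 and 15.16 (median 15.06), so that the groups overlapped. It differed by 0.16 (SE 0.07, unadjusted limma p = 0.0431, adjusted p = 0.976, exact permutation p = 0.0411). *Etfa*, the alpha subunit, differed by 0.04 (SE 0.07). The within-group SDs of these 3 genes were small, at 0.0964 to 0.114, and *Etfdh* had the lowest of the set.

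Peroxisomal oxidation was represented by 3 genes, of which 0 passed and 2 were above 0 (median 0.15). *Ehhadh*, the bifunctional enzyme induced by PPARα ligands in rodents, was between 11.17 and 11.91 in AAV-GFP and between 10.93 and 12.25 in AAV-Cre, with 2 AAV-Cre arrays below and 3 above the whole AAV-GFP range. *Hsd17b4*, the second, largely constitutive bifunctional enzyme, lay between 15.05 and 15.45 over all arrays with a difference of -0.04 (SE 0.07). *Pex11a*, which promotes peroxisome division, differed by 0.23 (SE 0.26), and its 4 probes were all above 0.

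The acyl-CoA thioesterases release free fatty acids from CoA, and this list held both the largest differences and both directions. All 6 were measured, 0 passed, 3 were above and 3 below 0 (median 0.10). *Acot4*, a peroxisomal enzyme that in mouse hydrolyses succinyl-CoA, was between 9.33 and 11.05 in AAV-GFP (median 9.88) and between 8.65 and 10.31 in AAV-Cre (median 9.06). On 5 of 6 AAV-Cre arrays it lay below the lowest AAV-GFP array, while AAV-Cre replicate 2 lay among the AAV-GFP arrays. The difference of -0.86 (SE 0.31, a 1.81-fold lower mean, 95% interval -1.52 to -0.20) had the lowest unadjusted limma p of the set (0.0149), an adjusted p of 0.738 and an exact permutation p of 0.0368. Leaving out 1 array at a time gave -1.08 to -0.66, and without AAV-Cre replicate 3 it was -0.80.

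*Acot3*, a peroxisomal long-chain thioesterase, was between 8.19 and 12.26 in AAV-GFP (median 9.28) and between 8.23 and 11.75 in AAV-Cre (median 10.79). A single AAV-GFP array, replicate 6, was the highest of all, and the difference of 0.80 (SE 0.68) had an exact permutation p of 0.320 and lay between 0.51 and 1.33 when 1 array was left out. *Acot1*, the cytosolic enzyme strongly induced by PPARα ligands in rodents, was between 11.88 and 15.27 (median 13.19) and between 12.13 and 15.16 (median 14.12). AAV-GFP replicate 6 was again the highest and AAV-GFP replicate 1 the lowest, a 10.5-fold range within the control group, and the groups differed by 0.51 (SE 0.55, exact permutation p = 0.433). Without AAV-GFP replicate 1 this was 0.21, and without AAV-GFP replicate 6 it was 0.89. *Acot12*, a cytosolic acetyl-CoA thioesterase, was between 11.58 and 12.11 (median 11.70) and between 11.70 and 12.42 (median 11.90). AAV-Cre replicate 3 was the highest, and the difference of 0.22 (SE 0.14, exact permutation p = 0.167) was 0.14 without that array. *Acot2*, the mitochondrial member, was dim (8.47 to 8.89), and *Acot8*, a peroxisomal member, differed by -0.01, with 1 of its 3 probes above 0. *Acot1* and *Acot2* are near-identical neighbours, with *Acot3* and *Acot4* more distant paralogs close by, and cross-hybridisation between their probes was not tested.

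**Figure D3:**
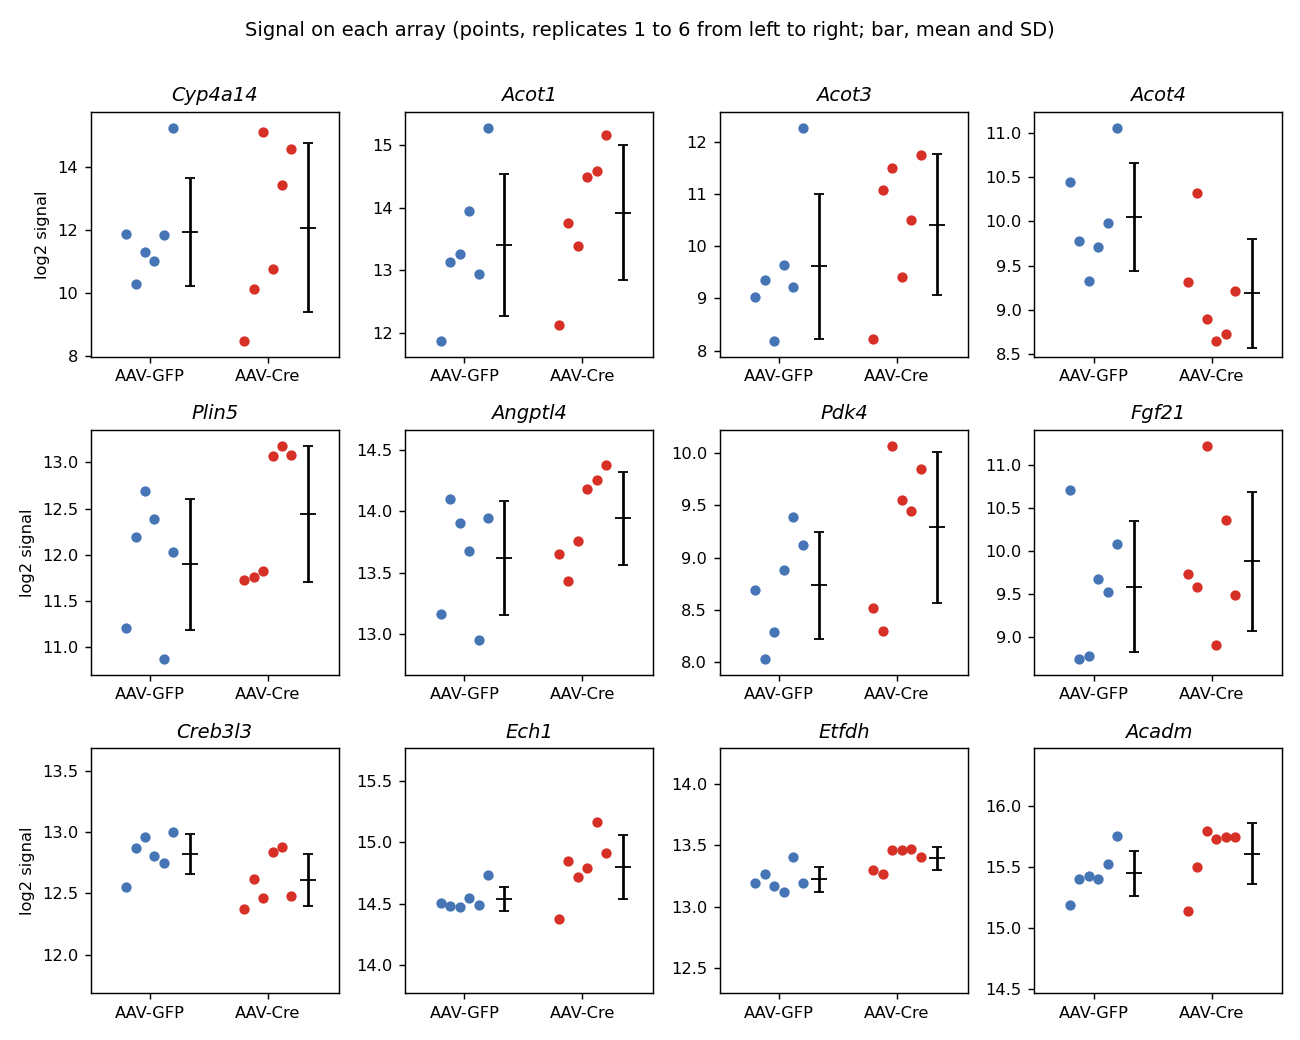
Log2 normalized signal (vertical axes, each with its own range) of 12 members on the 6 AAV-GFP arrays (blue) and the 6 AAV-Cre arrays (red), replicates 1 to 6 from left to right in each group, with the group mean and SD as a black bar. The groups overlap in every panel, *Cyp4a14* spans 8.47 to 15.22, and *Etfdh* spans 13.11 to 13.47.

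The PPARα response and signalling genes comprised 4 genes, of which 0 passed and 3 were above 0 (median 0.22). *Cyp4a14*, a fatty acid omega-hydroxylase and a classical PPARα target in mice, was between 10.27 and 15.22 in AAV-GFP (median 11.57) and between 8.47 and 15.09 in AAV-Cre (median 12.09). It was high on AAV-GFP replicate 6 and AAV-Cre replicates 3, 5 and 6 and lowest on AAV-Cre replicates 1 and 2, so that both groups held high and low arrays. The range over all arrays was 107.8-fold, and the difference between groups was 0.14 (SE 1.12, 95% interval -2.26 to 2.55, exact permutation p = 0.922). The sign was not stable: without AAV-Cre replicate 3 the difference was -0.46. The interval corresponds to 0.21-fold to 5.87-fold, so at this spread changes within these bounds were not excluded.

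*Pdk4*, which inhibits pyruvate dehydrogenase and so spares glucose in fasting, was between 8.03 and 9.39 in AAV-GFP (median 8.79) and between 8.30 and 10.06 in AAV-Cre (median 9.50). AAV-Cre replicates 3 to 6 lay above every AAV-GFP array and replicates 1 and 2 among the lower ones, and the difference was 0.55 (SE 0.31, exact permutation p = 0.152), or 0.40 without AAV-Cre replicate 3. *Fgf21*, the fasting hormone of the liver, was between 8.75 and 10.71 (median 9.60) and between 8.90 and 11.22 (median 9.66). Its highest value was on AAV-Cre replicate 3, and the difference of 0.30 (SE 0.39, exact permutation p = 0.522) was 0.03 without that array. *Creb3l3*, a membrane-bound transcription factor that acts with PPARα in fasting, was between 12.55 and 12.999 (median 12.84) and between 12.37 and 12.88 (median 12.55). It was one of 5 members below 0, with 3 AAV-Cre arrays under the AAV-GFP range, and the difference of -0.21 (SE 0.10) had an unadjusted limma p of 0.0600 and an exact permutation p of 0.0823.

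Members of the set also differed widely in spread. The within-group SD, pooled over both groups, was 2.25 for *Cyp4a14*, 1.37 for *Acot3*, 1.11 for *Acot1*, 0.783 for *Fgf21*, 0.722 for *Plin5*, 0.623 for *Pdk4* and 0.611 for *Acot4*. Each was at or above the 97.2 percentile of the 11952 probes detected on every array, whose median was 0.179. Of the 37 genes, 13 had an SD in the top 10% of these probes. At the other end lay *Etfdh* (0.0964), *Hadh* (0.108), *Etfa* (0.109), *Hsd17b4* (0.110), *Acads* (0.111) and *Etfb* (0.114). The median SD per role was 0.184 for mitochondrial beta-oxidation and 0.109 for electron transfer, against 0.461 for thioesterases and 0.703 for the PPARα response.

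**Figure D4:**
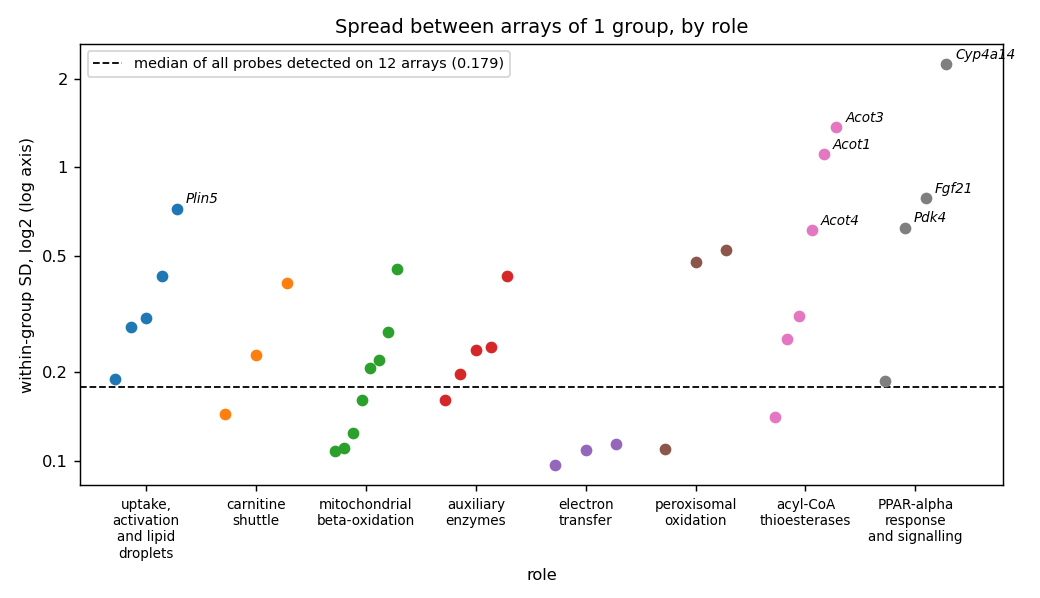
Within-group SD of the log2 signal (log axis), pooled over the 6 AAV-GFP and 6 AAV-Cre arrays, for each measured gene (points) by role, with genes above 0.55 named. The dashed line at 0.179 is the median of all probes detected on 12 arrays, the 3 electron transfer genes lie below it, and *Cyp4a14* is highest at 2.25.

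Of the 37 genes, 19 were read by several probes. In 16 of these all probes lay on the same side of 0, and in *Crat*, *Angptl4* and *Acot8* they did not.

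In all 8 pairs of members, chosen for shared protein complexes, neighbouring genes or a shared response, signals were compared over the 12 arrays. The pairs were chosen with earlier results of these data known, and the whole set rose and fell between arrays. Correlations of other member pairs were not computed, so the p-values do not set these pairs apart from the rest of the set. *Ehhadh* and *Cyp4a14* had the closest relation (Pearson's r = 0.83, permutation p = 9.7e-04, adjusted over 8 pairs 0.00776, and Spearman's rho = 0.78, permutation p = 0.00382, adjusted 0.0306). Within AAV-GFP r was 0.59 (exact permutation p = 0.213) and within AAV-Cre 0.92 (exact permutation p = 0.00139), and without the 2 arrays farthest from the *Ehhadh* median it was 0.73. Without AAV-Cre replicate 3 it was 0.79 over the 11 arrays (permutation p adjusted over 8 pairs 0.0149) and 0.91 within the other 5 AAV-Cre arrays (exact permutation p = 0.0667). *Hadha* and *Hadhb*, the 2 subunits of the trifunctional protein, gave r = 0.75 (permutation p = 0.00361, adjusted 0.0144) and rho = 0.73 (permutation p = 0.00913, adjusted 0.0365). Within groups r was 0.75 and 0.74 (exact permutation p = 0.0944 and 0.0528), and without the 2 arrays farthest from the *Hadha* median, AAV-GFP replicate 6 and AAV-Cre replicate 6, it was 0.57. With median scaling in place of quantile normalization this relation did not hold (r = 0.29, permutation p adjusted over 8 pairs 0.592). The other 6 pairs did not pass the adjustment. *Cyp4a14* and *Acot1* gave r = 0.58 (rho = 0.46, adjusted permutation p = 0.131 and 0.271). *Etfa* and *Etfb*, subunits of one flavoprotein, gave r = 0.15 over all arrays, -0.54 within AAV-GFP and 0.74 within AAV-Cre.

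**Figure D5:**
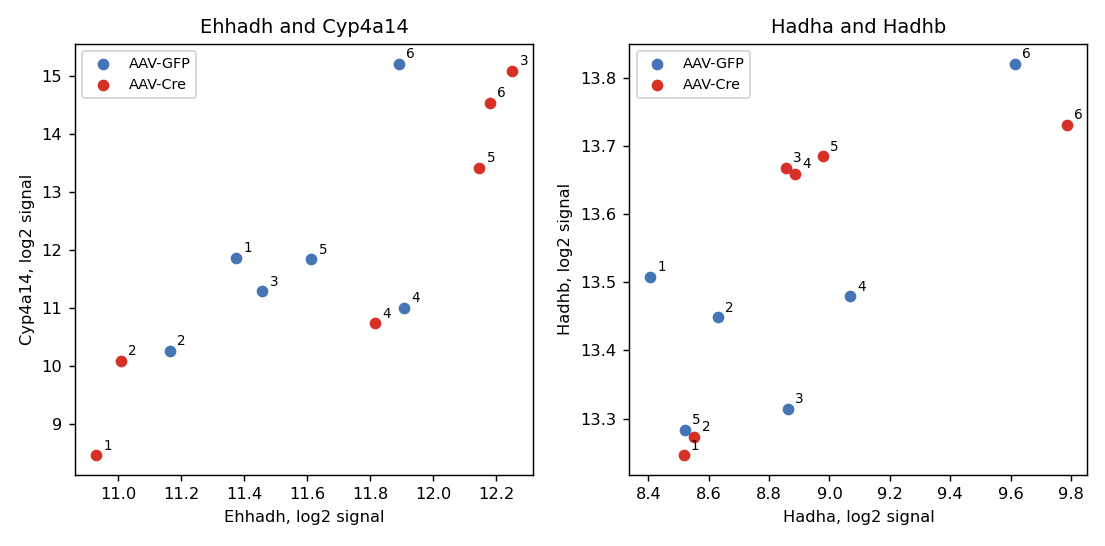
Log2 signal of *Cyp4a14* against *Ehhadh* (left) and of *Hadhb* against *Hadha* (right), with 1 point per array, coloured by group and numbered by replicate. On the left AAV-Cre replicate 1 is lowest and AAV-GFP replicate 6 and AAV-Cre replicates 3, 5 and 6 are highest in *Cyp4a14*, and on the right the replicates numbered 6 of both groups lie apart on the *Hadha* axis.

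Genes of the pathway outside the set lay on both sides of 0. Of 111 such genes 88 were measured, 0 passed, and 39 were above and 49 below 0 (median -0.0066). *Ppara* itself was between 8.91 and 9.53 in AAV-GFP (median 9.21) and between 9.13 and 9.80 in AAV-Cre (median 9.39), a difference of 0.20 (SE 0.12, exact permutation p = 0.152). Among 29 other oxidation enzymes 14 were above 0, among 15 other PPARα targets 7, among 6 omega-oxidation genes 3, and among 5 ketone body genes 1. Of 12 genes of uptake and activation 6 were above 0, of 12 lipolysis and droplet proteins 4, and of 9 nuclear receptors and cofactors, *Ppara* included, 4. The difference between this set and the measured members was not tested.

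The 6 genes of this group with the lowest unadjusted p are described next. *Cyp4a12b*, an omega-hydroxylase more abundant in male than in female mouse liver, was between 13.22 and 14.99 in AAV-GFP (median 14.27) and between 8.04 and 12.98 in AAV-Cre (median 11.80). Every AAV-Cre array lay below every AAV-GFP array, with AAV-Cre replicates 3 and 6 the lowest. The difference of -3.06 (SE 0.70) had an adjusted p of 0.179 and an exact permutation p of 0.00216, the smallest that 924 assignments allow, and was -2.46 without AAV-Cre replicate 3. *Cyp4a12a*, a close paralog of *Cyp4a12b*, was between 15.99 and 16.11 in AAV-GFP. In AAV-Cre it was 7.89 on replicate 3 and between 15.74 and 16.10 on the other arrays. Cross-hybridisation between the 2 probes was not tested. *Acox2*, the peroxisomal oxidase of branched chains and bile acid precursors, was between 13.85 and 14.56 (median 14.28) and between 13.21 and 14.03 (median 13.77), a difference of -0.56 (SE 0.15, adjusted p = 0.343). *Acsl5*, an acyl-CoA synthetase, differed by -0.24 (SE 0.09, adjusted p = 0.797), from a median of 15.60 to 15.40.

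Higher means were found for the other 3 genes, with 3 or 4 AAV-Cre arrays above every AAV-GFP array in each. *Krt23*, a keratin, was between 8.72 and 10.90 (median 10.22) and between 9.69 and 13.27 (median 11.79), a difference of 1.54 (SE 0.55, adjusted p = 0.726). *Gpd1*, the glycerol phosphate dehydrogenase that links glycolysis to triglyceride, was between 11.02 and 11.73 (median 11.36) and between 11.49 and 12.16 (median 11.81), a difference of 0.45 (SE 0.15, adjusted p = 0.616). *Plin4*, a lipid droplet protein, was between 8.37 and 10.49 (median 9.49) and between 9.39 and 11.43 (median 10.50), a difference of 1.05 (SE 0.40, adjusted p = 0.797). None of these passed the test over all probes.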

How the data were processed

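RNA of 12 hepatocyte samples was measured on Illumina MouseWG-6 v2 arrays. The authors exported from GenomeStudio (version not stated) a probe intensity on a linear scale, with background left in, and the deposited detection p-value of every probe. They also deposited a table of quantile-normalized intensities for 19627 probes, used here only as an alternative and as the source of gene names. All 24 deposited signal and detection columns were mapped to samples, and 0 others were left unused.

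Exported intensities were quantile-normalized and taken to log2, and the 20561 of 45281 probes with a detection value of 0.05 or less on some array were kept. Of these, 16568 carried 1 symbol and covered 10838 genes. Groups were compared with limma 3.58.1 (lmFit and eBayes, two-sided, R 4.3.3), and p-values were adjusted over the kept probes by Benjamini-Hochberg. The scripts were tested on simulated data. Exact two-sided permutation tests used all 924 assignments of arrays, and 37 members and 88 other pathway genes were tested so, with no adjustment. Correlations used 100000 permutations over all arrays, the number of arrays limiting the precision. SAM, the study's test, was not run.

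Values are given for the 8 members with the lowest unadjusted p, the 6 with the largest SD over all 12 arrays (group difference included), and *Cyp4a14*, *Pdk4*, *Fgf21*, *Angptl4*, *Plin2*, *Cidec*, *Acot1* and *Creb3l3*, and for *Ppara* and the 6 pathway genes with the lowest unadjusted p. *Cyp4a12a* was added as the paralog of *Cyp4a12b*. The members, lists and pairs were chosen with earlier results of these data known. Promoters came from RefSeq (GRCm38.p6). The sources used here do not name the chip of each array, so no chip block was possible. The alternatives were median scaling, normexp background correction, the authors' table, other detection filters, the mean of a gene's probes, the replicate number as a block, and leaving out each array.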

Additional observations from a re-analysis of the deposited data

Results flagged for a closer look

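A single array lay far from the other 5 of its group in 6 of the 74 gene and group combinations tested by the gap to its nearest neighbour, where chance gives about 1 in 20. Of these, 3 were on AAV-GFP replicate 6: *Cyp4a14* at 15.22 (next highest 11.87), *Acot3* at 12.26 (next 9.63) and *Ech1* at 14.73 (next 14.55). AAV-Cre replicate 1 was low for *Acadl* at 10.47 (next lowest 11.06) and for *Hsd17b4* at 15.05 (next 15.30), and AAV-Cre replicate 6 was high for *Hadha* at 9.79 (next 8.98). For *Cyp4a14* and *Acot3* the AAV-GFP SD therefore rests largely on 1 array.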

How the results depend on the processing

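Under the 7 alternatives and the 12 fits without 1 array, 0 members and 0 other pathway genes passed. The median difference was 0.11 to 0.20 under the 7 alternatives and 0.07 to 0.18 without 1 array, with 31 to 34 and 28 to 34 of the members above 0. With median scaling all probes shifted by 0.03 and 62.2% of them were above 0, against 51.0%. Over all probes 34 passed, against 10 with median scaling, 18 with normexp and 19 to 42 without 1 array. The sign of *Cyp4a14* turned with normexp background correction (-0.0612) and in 5 fits without 1 array (range -0.46 to 0.86), and no other of the 23 genes followed through all settings changed sign. Without 1 array, 9 of the 37 members turned at least once. Whether the replicate numbers pair the samples was not settled. The correlation of same-numbered deviations was -0.23 to 0.45, above 0.1 in 4 of 6 pairs, and 3 of 6 were highest with their own number. For different numbers the median correlation was -0.0232. The main fit did not use the replicate numbers. With the replicate block 20 probes and 0 members passed, the median was 0.14 and 7 members had an unadjusted limma p under 0.05. That count was 5 in the main fit, 7 with median scaling, and 2 with normexp or with the mean of a gene's probes. It was 4 with the authors' table, 5 with detection on at least 6 arrays and 6 with no detection filter. With median scaling *Hadha* and *Hadhb* no longer passed (r = 0.29) and *Acot1* and *Acot2* turned from 0.34 to -0.0636. Without AAV-Cre replicate 3, chosen after seeing the data, *Cyp4a14* and *Acot1* passed (r = 0.70, permutation p adjusted over 8 pairs 0.0467). The causes were not tested. Array number and dim probes (*Cidec*, *Hadha*, *Hadh*, *Acot2*) limit what could be seen.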
